A study of Mus musculus with 12 samples.

Results

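The 10 genes examined here encode enzymes that make serine, glycine, folate-bound one-carbon units, asparagine and proline: Phgdh, Psat1, Psph, Shmt1, Shmt2, Mthfd2, Mthfd1l, Aldh1l2, Asns and Pycr1. They were chosen by symbol, with earlier results of these data known, from the 24062 genes of the deposited count table. All 10 were found and passed the filter on low counts in every comparison. RNA was sequenced from whole hearts of 12 mice, 3 per group. WT and KI/KI mice were 2 months old, and KI/KI mice carried Lemd2 c.T38>G on both alleles in all cells, from a line made by genome editing and crossed to C57BL/6N. At postnatal day 1 (P1), floxed mice carried loxP sites around exon 1 of Lemd2 without Cre, and cKO mice carried the floxed alleles together with Myh6-Cre, which is expressed in cardiomyocytes, so other heart cells keep the gene. The model (a point mutation in every cell or a deletion in cardiomyocytes) and the age cannot be told apart, and whether floxed and cKO pups were littermates is not given in the sources used here.

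Serine is made from a glycolytic intermediate in 3 steps, by Phgdh, Psat1 and Psph. Shmt1 in the cytosol and Shmt2 in mitochondria then split serine into glycine and a one-carbon unit carried by tetrahydrofolate, which Mthfd2 oxidises further inside mitochondria. Mthfd1l then releases it as formate, for purine and thymidylate synthesis, or Aldh1l2 oxidises it to carbon dioxide with NADPH. Asns makes asparagine from aspartate and glutamine, and Pycr1 makes proline in mitochondria. Phgdh, Psat1, Shmt2, Mthfd2, Aldh1l2, Asns and Pycr1 are known as targets of ATF4, the transcription factor of the integrated stress response, which binds a C/EBP-ATF response element, and hearts with mitochondrial disease are known to raise several of them.

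Promoters were searched for that element because several of these genes rose together in cKO hearts. RefSeq promoters (GRCm38.p6, 250 bases before to 50 after the start) were at hand for 9 of the 10 genes, Aldh1l2 being the other, and Psat1 had a pair of them. The letters TGATGNAA, on either strand, occurred in a promoter of 2 of the 9 genes, Asns and Pycr1, and of 4.51% of 27025 genes with promoters of the same length (3.97% of 32851 promoters). The E-box CACGTG occurred in none of the 9 and in a promoter of 8.09% of all genes (7.15% of promoters). The matches are given in capitals, 5′ to 3′ on the minus strand, where all 3 genes lie. The Asns match lies from -23 to -16 of the RefSeq start, inside the first exon as GENCODE vM21 annotates it, and is given with 11 bases on either side. The Pycr1 match lies from -103 to -96, outside annotated exons. Mthfd2 is shown because it had the largest increase in cKO hearts, and its promoter held no match.
Asns promoter, chr6:7693214-7693243: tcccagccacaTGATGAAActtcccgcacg
Pycr1 promoter, chr11:120643770-120643998: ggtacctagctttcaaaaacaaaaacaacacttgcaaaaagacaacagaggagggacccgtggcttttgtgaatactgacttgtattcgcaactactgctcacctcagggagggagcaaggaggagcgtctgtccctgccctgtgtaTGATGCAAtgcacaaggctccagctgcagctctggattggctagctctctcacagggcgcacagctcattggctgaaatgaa
Mthfd2 promoter, chr6:83317607-83317854: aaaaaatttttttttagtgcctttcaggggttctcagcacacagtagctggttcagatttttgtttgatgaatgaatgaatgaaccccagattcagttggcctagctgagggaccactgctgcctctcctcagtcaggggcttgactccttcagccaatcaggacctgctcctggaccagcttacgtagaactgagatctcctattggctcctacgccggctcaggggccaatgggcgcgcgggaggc

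Library totals ranged from 37063669 to 44789753 counts, and the lowest count of any of the 10 genes in any heart was 25 (Phgdh in WT 2). Levels are given as CPM, counts relative to the library total, adjusted by edgeR's TMM factors over the 12 hearts. Lemd2 itself was at 31.9, 34.7 and 33.0 CPM in WT, 25.6, 25.1 and 24.8 in KI/KI, 24.4, 25.1 and 25.3 in floxed and 6.64, 13.1 and 11.3 in cKO hearts. The 6 cardiomyocyte markers were present in every heart, with sums from 24884 to 73584 CPM. KI/KI 5 stood apart from the other KI/KI hearts, with a fibroblast marker sum of 3362 CPM and a proliferation marker sum of 80.9 CPM, the highest of the 6 adult hearts. Lung epithelium markers, mostly Scgb1a1, summed to 100.1 CPM in WT 3, 34.8 in KI/KI 4, 42.9 in floxed 2, 27.6 in floxed 1 and 19.4 in cKO 4, and to at most 5.01 in the other hearts. WT 3 also had the highest levels of the adipocyte gene Adipoq (15.1 CPM) and of the fast muscle gene Myh4 (3.55 CPM). cKO 4 was the single heart with Y-linked genes at or near 0, and its Xist stood at 617 CPM, against at most 2.03 in any other heart. In fits of P1 hearts a covariate of Y-linked expression therefore mainly sets cKO 4 apart. cKO 6 had the highest proliferation marker sum of the 12 (1085 CPM). In these whole-heart samples, fewer cells of a type and less RNA per cell cannot be told apart.

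**Figure D1:**
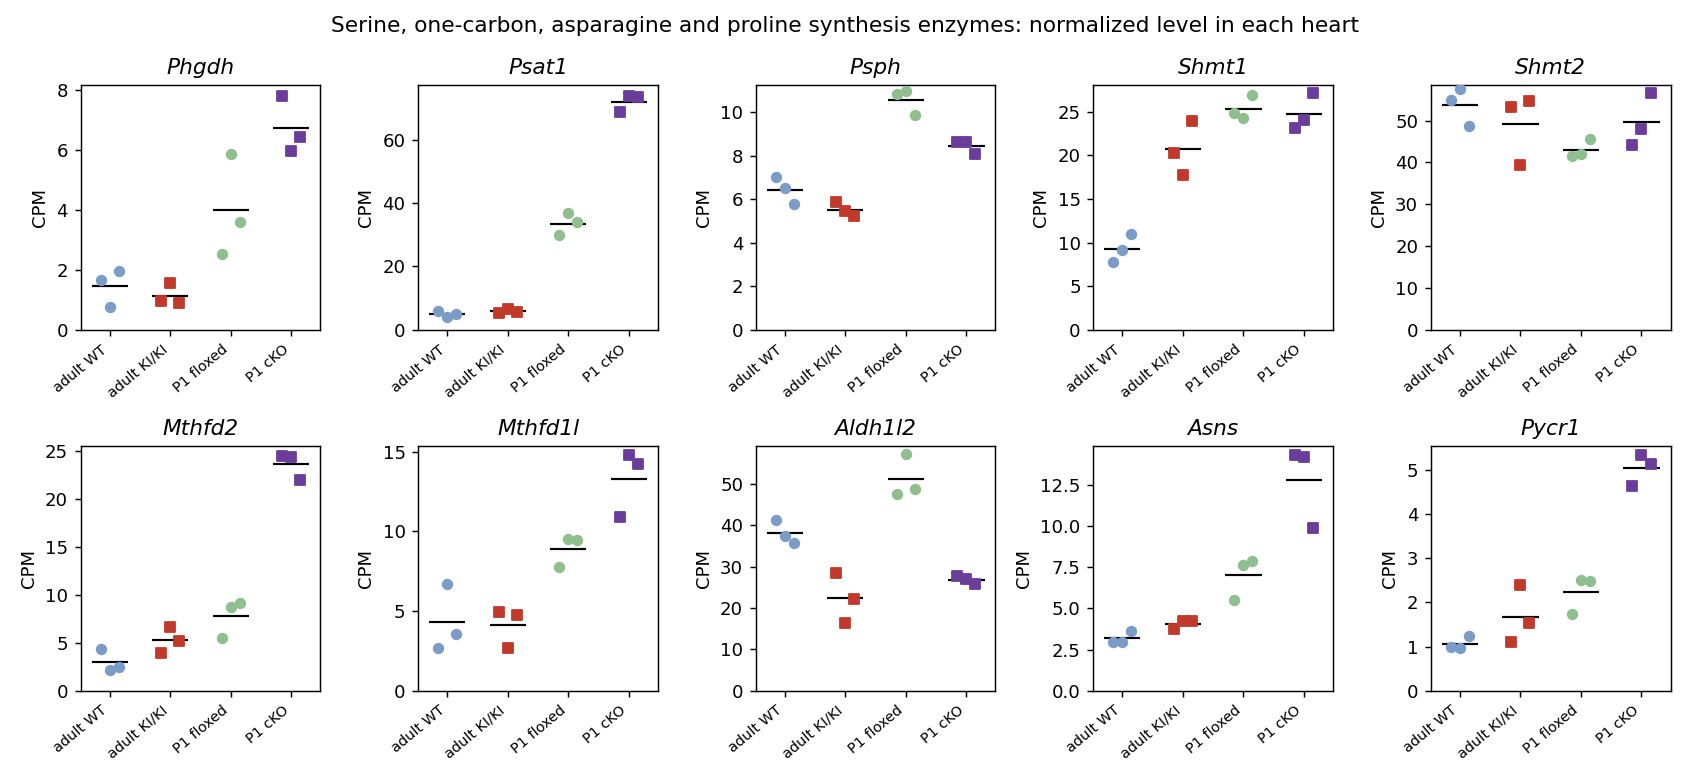
Level of each of the 10 enzymes in each heart, in CPM normalized over the 12 hearts, with each panel's axis starting at 0. Circles are WT and floxed hearts, squares KI/KI and cKO hearts (3 per group), and bars are group means. Phgdh, Psat1, Mthfd2, Mthfd1l, Asns and Pycr1 were higher in every cKO heart than in any other heart, and Aldh1l2 was lower in every KI/KI and cKO heart than in any control heart.

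Deletion of Lemd2 in cardiomyocytes was compared with floxed controls at P1. Only cKO mice carried Myh6-Cre, so the deletion and the Cre transgene cannot be told apart. In cKO hearts, 5 of the 10 enzymes rose (Mthfd2, Pycr1, Psat1, Asns and Mthfd1l), by 1.49-fold to 3.04-fold, and 1 fell (Aldh1l2, to 0.525 of the floxed level), by the quasi-likelihood test of edgeR with a threshold of 0.05 on the adjusted p. Over all 15317 genes tested, 16.5% were called, 9.15% higher and 7.31% lower. The median log2 fold change was 0.67 over the 10 enzymes and -0.0048 over all genes. With a fold above 2 also required, 3 of the 10 were called (Psat1, Mthfd2 and Pycr1), against 4.48% of all genes. The floxed and cKO hearts did not overlap in 8 of the 10 genes, against 39.8% of all genes.

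Among the serine synthesis genes, Psat1 (phosphoserine aminotransferase, chr19:15904678-15947337, minus strand) had levels of 29.8, 36.8 and 34.0 CPM in the floxed group and of 68.9, 73.8 and 73.4 CPM in the cKO group. Every cKO heart was above every floxed heart, and the spread within each group was small beside the gap. The log2 fold change was 1.10 (SE 0.09, adjusted p = 0.00494). Phgdh (the first and committed step, chr3:98313170-98339990, minus strand) was at 2.52, 5.87 and 3.59 CPM in floxed and 7.80, 5.94 and 6.43 in cKO hearts. The groups did not overlap, but floxed 2 lay just below cKO 5, and the log2 fold change of 0.75 (SE 0.31) did not pass the test (adjusted p = 0.137). Psph (phosphoserine phosphatase, chr5:129765558-129787449, minus strand) went the other way without passing, at 10.8, 11.0 and 9.87 CPM in floxed and 8.61, 8.64 and 8.05 in cKO hearts (log2 fold change -0.32, SE 0.11, adjusted p = 0.0910), though it was called in the edgeR fit of all 12 hearts (adjusted p = 0.0438). The 3 steps of the same pathway thus had log2 fold changes of 0.75, 1.10 and -0.32.

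Neither serine hydroxymethyltransferase passed the test in cKO hearts. Shmt1 (chr11:60788104-60811718, minus strand) was at 24.8, 24.3 and 26.9 CPM in floxed and 23.1, 24.0 and 27.1 in cKO hearts, which overlapped (log2 fold change -0.04, SE 0.09, adjusted p = 0.809). Shmt2 (chr10:127517123-127522444, minus strand) was at 41.5, 42.0 and 45.5 CPM in floxed and 44.1, 47.9 and 56.5 in cKO hearts, again overlapping (log2 fold change 0.20, SE 0.10, adjusted p = 0.200).

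The mitochondrial folate enzymes moved in both directions. Mthfd2 (the NAD-dependent methylenetetrahydrofolate dehydrogenase, chr6:83305691-83325908, minus strand) was at 5.46, 8.71 and 9.11 CPM in floxed and 24.4, 24.4 and 22.0 in cKO hearts. All 3 cKO hearts were more than 2 times as high as the highest floxed heart. Its log2 fold change of 1.60 (SE 0.20, adjusted p = 0.00689) was the largest of the 10. Mthfd1l (which releases formate, chr10:3973118-4167081, plus strand) was at 7.77, 9.52 and 9.45 CPM in floxed and 10.9, 14.8 and 14.2 in cKO hearts. The groups did not overlap and the log2 fold change was 0.58 (SE 0.15, adjusted p = 0.0428). Aldh1l2 (which oxidises formyltetrahydrofolate to carbon dioxide, chr10:83487450-83534140, minus strand) was at 47.5, 57.2 and 48.8 CPM in floxed and 27.8, 26.9 and 25.8 in cKO hearts. It was the single enzyme of the 10 that was called lower, with a log2 fold change of -0.93 (SE 0.10, adjusted p = 0.00594). As a level per kb of exon within each heart, Mthfd2 stood at 0.333 to 0.540 of Aldh1l2 in floxed hearts and at 2.46 to 2.62 times Aldh1l2 in cKO hearts.

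Asns (asparagine synthetase, chr6:7675169-7693254, minus strand) was at 5.53, 7.62 and 7.90 CPM in floxed and 14.3, 14.2 and 9.89 in cKO hearts. cKO 6 lay below the other cKO hearts and above every floxed heart. The log2 fold change was 0.87 (SE 0.21, adjusted p = 0.0344), and 1.03 (adjusted p = 0.00912) without cKO 6. Without any other 1 of the 6 hearts it was not called (log2 fold change 0.72 to 0.96, adjusted p from 0.0605 to 0.132). Pycr1 (pyrroline carboxylate reductase, chr11:120635712-120643769, minus strand) was at 1.75, 2.51 and 2.48 CPM in floxed and 4.65, 5.34 and 5.15 in cKO hearts, which did not overlap. Its log2 fold change was 1.16 (SE 0.19, adjusted p = 0.0131).

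The count of 6 fell to 3 when floxed 1 or cKO 5 was left out, where 0.83% and 3.1% of all genes were called, and was 5 without cKO 4 (11.9% of all genes) and 5 without cKO 6 (21.6%). Psat1, Mthfd2 and Aldh1l2 were called in each of the 6 fits that left out 1 heart, and Asns and Mthfd1l in 1 fit each. Markers of proliferating cells moved with these genes: 3 of 6 were called higher in cKO hearts and none lower, and their sum was 280 to 393 CPM in floxed and 454 to 1085 CPM in cKO hearts. Of 5 macrophage markers 3 were called higher (sums of 80.8 to 92.3 and 97.0 to 183 CPM), and of 6 cardiomyocyte markers 3 were called lower (33165 to 37868 and 24884 to 27670 CPM). Of the other lists, 2 of 5 fibroblast, 1 of 5 endothelial and 1 of 4 fast skeletal muscle markers were called higher, and no tested erythroid, adipocyte, lung or hepatocyte marker was called. Among the cKO hearts, cKO 6 had the highest proliferation sum and the lowest Mthfd2 and Asns, while cKO 4 had the lowest proliferation sum and the lowest Psat1, Mthfd1l and Pycr1. The part of these cell types in the results was not tested.

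**Figure D2:**
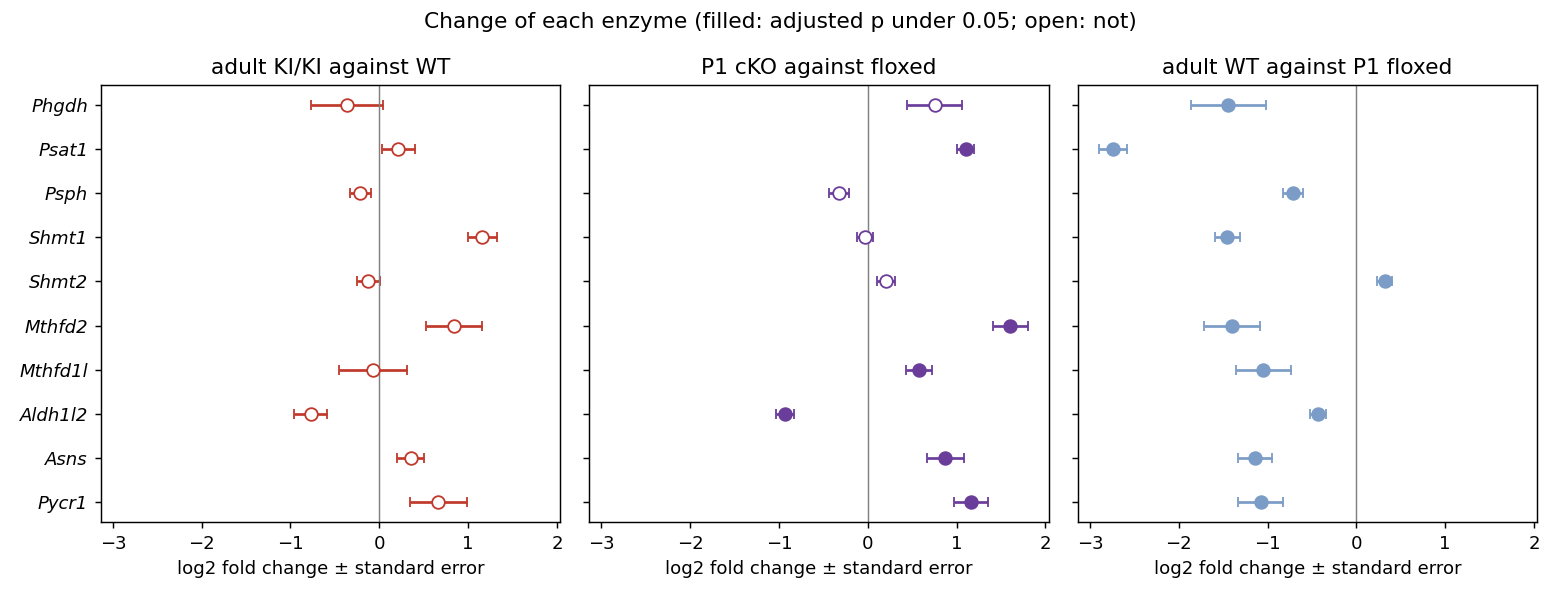
Log2 fold change with its standard error for the 10 enzymes in the 3 comparisons, from edgeR fits of 6 hearts each, with filled circles at an adjusted p under 0.05. In cKO hearts 6 circles are filled, from -0.93 (Aldh1l2) to 1.60 (Mthfd2), in KI/KI hearts none, and in adult WT against P1 floxed hearts all 10, with Shmt2 the single one above 0.

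Adult KI/KI hearts were compared with WT hearts of the same age. None of the 10 enzymes was called, as none of the 14592 genes was (0%), the smallest adjusted p over all genes being 0.0743. At an unadjusted p under 0.05 edgeR gave 3 of the 10, Shmt1 and Mthfd2 higher and Aldh1l2 lower, against 16% of all genes. DESeq2 called 2 of the 10, Shmt1 higher and Aldh1l2 lower, where it called 3.54% of all genes. The KI/KI and WT hearts did not overlap in 3 of the 10, against 22.4% of all genes. No marker of another cell type was called by edgeR either, but sums moved between the groups. The cardiomyocyte markers summed to 65960 to 73584 CPM in WT and to 46996 to 65005 CPM in KI/KI hearts, and 6 of 6 had a log2 fold change below 0. The macrophage markers summed to 150 to 227 CPM in WT and 235 to 260 CPM in KI/KI hearts, and 5 of 5 macrophage, 5 of 5 fibroblast, 5 of 5 endothelial and 6 of 6 proliferation markers had a log2 fold change above 0. Of these lists, 1 cardiomyocyte, 2 macrophage and 1 endothelial marker had an unadjusted p under 0.05. The part of these cell types in the KI/KI values was not tested.

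Shmt1 stood at 7.73, 9.09 and 11.0 CPM in WT and at 20.3, 17.7 and 23.9 in KI/KI hearts. Every KI/KI heart was above every WT heart, with a log2 fold change of 1.16 (SE 0.16, adjusted p = 0.186 by edgeR, 7.4e-07 by DESeq2). In the fit of all 12 hearts, which called 0.172% of genes, Shmt1 was the single enzyme of the 10 that was called. Without KI/KI 5 its log2 fold change was 1.26. Shmt2 overlapped between WT (55.0, 57.6 and 48.7 CPM) and KI/KI hearts (53.3, 39.4 and 54.6), with a log2 fold change of -0.12 (SE 0.13, adjusted p = 0.645). Per kb of exon, Shmt2 was therefore 5.51 to 8.82 times Shmt1 in WT and 2.76 to 3.26 times Shmt1 in KI/KI hearts.

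Aldh1l2 was at 41.3, 37.3 and 35.7 CPM in WT and at 28.4, 16.3 and 22.2 in KI/KI hearts, without overlap. The log2 fold change was -0.77 (SE 0.19, adjusted p = 0.212 by edgeR, 0.00832 by DESeq2), and -0.59 without KI/KI 5, the lowest heart. Mthfd2 was at 4.33, 2.10 and 2.43 CPM in WT and at 3.96, 6.61 and 5.19 in KI/KI hearts, where WT 1 lay above KI/KI 4 (log2 fold change 0.84, SE 0.32, adjusted p = 0.285). Asns was at 2.98, 2.96 and 3.63 CPM in WT and at 3.75, 4.25 and 4.21 in KI/KI hearts, which did not overlap (log2 fold change 0.36, SE 0.15, adjusted p = 0.316). Pycr1 was at 0.994, 0.976 and 1.23 CPM in WT and at 1.10, 2.39 and 1.54 in KI/KI hearts, with 1 KI/KI heart inside the WT range (log2 fold change 0.66, SE 0.32, adjusted p = 0.357), and its log2 fold change was 0.31 without KI/KI 5.

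The serine synthesis genes overlapped between WT and KI/KI hearts. Phgdh was at 1.67, 0.763 and 1.96 CPM in WT and 0.952, 1.54 and 0.898 in KI/KI hearts (log2 fold change -0.36, SE 0.40, adjusted p = 0.668). Psat1 was at 6.06, 4.03 and 5.02 CPM in WT and 5.30, 6.64 and 5.50 in KI/KI hearts (log2 fold change 0.22, SE 0.18, adjusted p = 0.561). Psph was at 7.02, 6.50 and 5.78 CPM in WT and 5.86, 5.45 and 5.25 in KI/KI hearts (log2 fold change -0.21, SE 0.12, adjusted p = 0.395). Mthfd1l had the widest relative spread among WT hearts, at 2.69, 6.71 and 3.57 CPM, beside 4.94, 2.68 and 4.74 in KI/KI hearts (log2 fold change -0.07, SE 0.38, adjusted p = 0.944). KI/KI 5, the heart with the highest fibroblast and proliferation marker sums, had the highest Phgdh, Psat1, Mthfd2, Asns and Pycr1 of the KI/KI hearts and the lowest Shmt1, Shmt2, Mthfd1l and Aldh1l2. Without it the log2 fold changes of Phgdh and Psat1 were -0.66 and 0.10. No enzyme was called with this or any other 1 of the 6 hearts left out, where 0 to 52 of all genes were called.

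The genotype effects in the 2 models were compared directly, as the cKO effect minus the KI/KI effect in a fit of all 12 hearts, which called 2.51% of 15729 genes. Of the 10 enzymes 2 were called. The Psat1 change was larger in cKO hearts by 0.89 on the log2 scale (SE 0.20, adjusted p = 0.0432), and the Shmt1 change was lower in cKO than in KI/KI hearts, by -1.19 (SE 0.20, adjusted p = 0.0202). For Mthfd2 the difference was 0.77 (SE 0.39) and for Aldh1l2 -0.16 (SE 0.23), and neither passed the test (adjusted p = 0.302 and 0.747). The count of 2 ranged from 0 to 2 with 1 heart left out, being 0 without KI/KI 6, without floxed 1 and without cKO 5. Those fits called 58 of 16010, 50 of 15910 and 62 of 15964 genes, against 395 of 15729 with all 12 hearts.

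To see how the enzymes stood in control hearts at the 2 ages, adult WT hearts were compared with P1 floxed hearts. Age, the floxed alleles and anything else that differed between the experiments cannot be told apart. All 10 enzymes were called, 9 lower and 1 higher in adult hearts, where 64.7% of 15183 genes were called, 33.3% lower and 31.4% higher. The median log2 fold change was -1.11 over the 10 and -0.04 over all genes. All 6 proliferation markers were called lower in adult hearts (sums of 29.8 to 59.0 against 280 to 393 CPM), and all 6 cardiomyocyte markers (65960 to 73584 against 33165 to 37868 CPM) and all 5 macrophage markers (150 to 227 against 80.8 to 92.3 CPM) higher. The part of these cells in the results was not tested. These control hearts are the ones each genotype comparison used, so the values above for WT and floxed hearts serve here too.

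Psat1 was furthest apart, with 4.03 to 6.06 CPM in adult WT and 29.8 to 36.8 CPM in floxed hearts, a log2 fold change of -2.74 (SE 0.16, adjusted p = 4.96e-06). Shmt1 (-1.45, SE 0.14, adjusted p = 5.48e-05), Phgdh (-1.44, SE 0.42, adjusted p = 0.0180) and Mthfd2 (-1.40, SE 0.31, adjusted p = 0.00517) followed on the log2 scale. The changes of Asns (-1.14), Pycr1 (-1.07), Mthfd1l (-1.05), Psph (-0.72) and Aldh1l2 (-0.43) were smaller, with adjusted p from 8.05e-04 to 0.0190. Phgdh was no longer called without floxed 2, nor Mthfd1l without floxed 2, floxed 3 or WT 3. In all 9 genes every adult WT heart lay below every floxed heart, and 71.1% of all genes had groups that did not overlap. Shmt2 alone was higher in adult hearts, at 48.7 to 57.6 CPM against 41.5 to 45.5 (log2 fold change 0.32, SE 0.08, adjusted p = 0.00944). With library totals in place of TMM factors the median of all genes moved to -0.45, and Shmt2 to -0.09, so its direction holds only relative to the other genes.

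Compared per kb of exon, the order of the 10 enzymes differed between groups. Shmt2 was the highest in WT (23.3 ± 1.98 CPM per kb, SD, n = 3), KI/KI (21.3 ± 3.64) and floxed hearts (18.7 ± 0.96), without overlap with the next enzyme. That next enzyme was Aldh1l2 in WT (6.32 CPM per kb), Shmt1 in KI/KI (7.23) and Psat1 in floxed hearts (11.4). In cKO hearts Psat1 was the highest (24.5 CPM per kb) and overlapped with Shmt2 (21.5 ± 2.76), followed by Mthfd2 (11.3 ± 0.67). Pycr1 was the lowest in every group, from 0.283 CPM per kb in WT to 1.34 in cKO hearts, though it overlapped with Phgdh in KI/KI hearts.

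Several of these enzymes have relatives that catalyse the same reaction. Mthfd2l, the other mitochondrial methylenetetrahydrofolate dehydrogenase, was at 6.05 ± 0.078 CPM per kb in floxed and 6.62 ± 0.56 in cKO hearts, and its log2 fold change of 0.13 did not pass the test (adjusted p = 0.422). Mthfd2 was 0.429 to 0.733 times Mthfd2l in floxed hearts and 1.65 to 1.75 times Mthfd2l in cKO hearts, so the order of the pair turned in all 3. Mthfd1, the cytosolic enzyme, overlapped between floxed (8.19 to 12.9 CPM per kb) and cKO hearts (8.50 to 13.8). Aldh1l1, the cytosolic relative of Aldh1l2, was at most 1.10 CPM per kb in every P1 heart and changed by -0.14 in cKO hearts (adjusted p = 0.807).

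**Figure D3:**
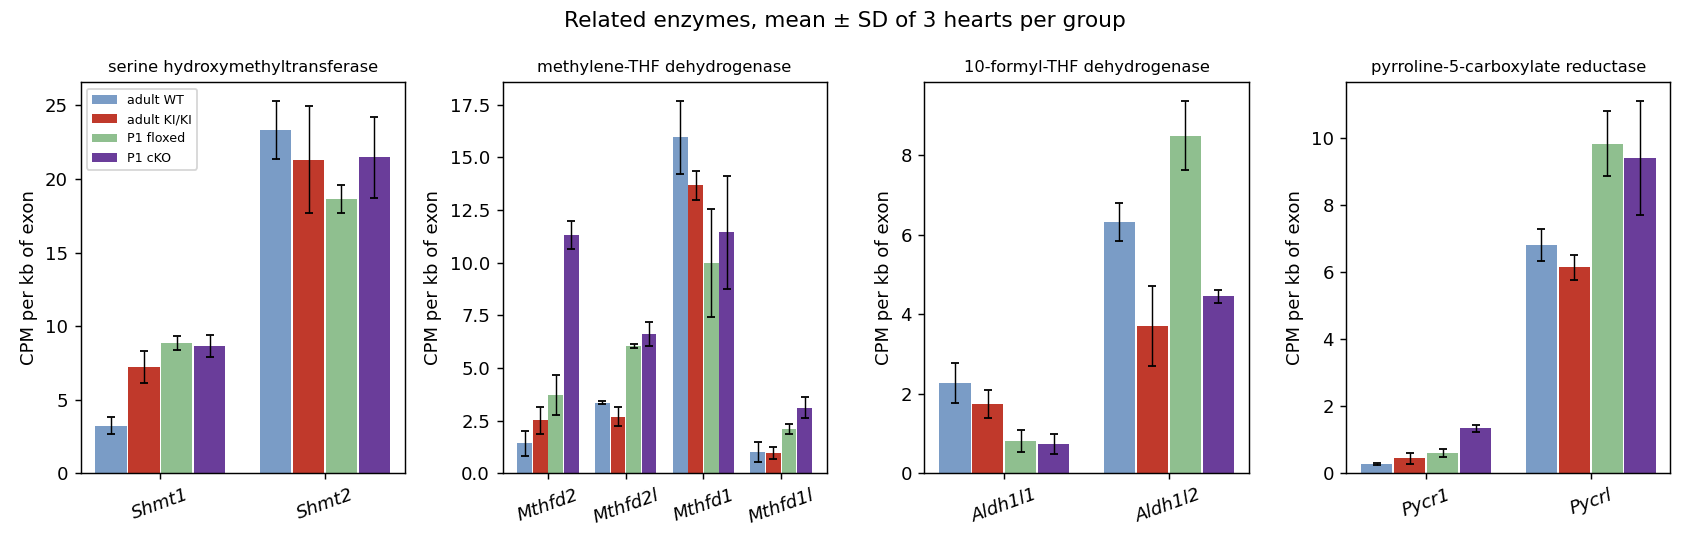
Levels of related enzymes per kb of exon (CPM per kb, axes from 0), as the mean and SD of 3 hearts in each of the 4 groups. Mthfd2 stands above Mthfd2l in cKO hearts (11.3 against 6.62) and below it in floxed hearts (3.72 against 6.05), and Shmt1 in KI/KI hearts (7.23) lies nearer to the P1 groups than to WT hearts (3.24).

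The genes around these enzymes were counted in 9 lists. In cKO hearts 7 of 14 amino acid transporters were called higher and none lower (median log2 fold change 0.56), and the log2 fold changes of the other 7 ran from -0.71 (Slc38a3) to 1.23 (Slc7a3). The largest among those called were Slc7a11 (cystine uptake, 2.54, SE 0.68, adjusted p = 0.0478), Slc43a1 (0.89) and Slc7a5 (large neutral amino acids, 0.80, SE 0.18, adjusted p = 0.0294). Each of these was called in 1 of the 6 fits that left out 1 heart. Slc7a11 was at 2.33, 0.720 and 0.276 CPM in floxed and 7.56, 4.42 and 7.35 in cKO hearts. Of 20 cytosolic aminoacyl-tRNA synthetases, which load amino acids onto tRNA, 6 were called higher and none lower (median 0.31), led by Cars (0.47), Aars (0.40) and Rars (0.36). Of 19 regulators and targets of the integrated stress response 8 were called higher and none lower (median 0.31). They were led by Gdf15 (a secreted stress hormone, 4.41, SE 0.32, adjusted p = 0.00494), Atf3 (2.30, SE 0.26, adjusted p = 0.00671) and Chac1 (glutathione breakdown, 2.04, SE 0.51, adjusted p = 0.0398). Chac1 had only 9, 3 and 8 counts in floxed and 37, 34 and 15 in cKO hearts. It was called in 1 of the 6 fits that left out 1 heart. Atf4, singled out for its role after its values were seen, was at 69.0, 87.5 and 84.5 CPM in floxed and 125, 127 and 123 in cKO hearts (log2 fold change 0.64, SE 0.10, adjusted p = 0.0114).

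These counts changed with the hearts in the fit, as did the share of all genes called, which was 0.83% without floxed 1, 4.01% without floxed 2, 10.7% without floxed 3, 11.9% without cKO 4, 3.1% without cKO 5 and 10.3% with Y-linked expression as a covariate. The transporter count was 0 without floxed 2 or without cKO 5, 1 without floxed 1 or without cKO 4, 2 without floxed 3 and 0 with the covariate. Without cKO 6, where 21.6% of all genes were called, 8 transporters were called higher and 1 lower. The synthetase count was 0 without floxed 1, floxed 2 or cKO 5 and 2 with the covariate, and the stress response count was 2 without floxed 1 or without cKO 5 and 5 without floxed 2, without floxed 3 or with the covariate.

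The other 6 lists held 0 to 2 called genes each in cKO hearts, where 16.5% of all genes were called. Of 20 folate and one-carbon enzymes and carriers outside the 10, 1 was called, Mtr (methionine synthase), which fell by 0.43 on the log2 scale (SE 0.10, adjusted p = 0.0306). Ahcy (which splits S-adenosylhomocysteine) rose by 0.61 and Mat2b, a regulatory subunit in S-adenosylmethionine synthesis, fell by 0.46 among 6 genes of the methionine cycle and transsulfuration. Glul (glutamine synthetase) rose by 0.87 and Asrgl1 (an asparaginase) fell by 0.66 among 13 genes that use serine, asparagine, aspartate and glutamine. Oat (ornithine aminotransferase) rose by 0.34 among 5 proline genes, and none of 4 glycine cleavage genes or 6 purine synthesis genes was called by edgeR. In these 2 lists 3 and 0 genes had an unadjusted p under 0.05, as did 5255 of all 15317 genes. DESeq2 called 1 and 0 of them, and 3758 of 15341 over all genes. In KI/KI hearts none of these lists held a called gene with edgeR, and their medians lay between -0.22 and 0.06. At an unadjusted p under 0.05, as 16% of all genes had, the stress response list held 6 of 19 genes, all higher. The synthetase list held 4 of 20, all higher, and the other 7 lists 0 to 3 each. DESeq2, which called 3.54% of all genes, called 3 genes of the stress response list and 0 or 1 of each other list. Gdf15, singled out after its values were seen, was at 0.225, 0.214 and 0.846 CPM in WT and 3.06, 13.5 and 8.84 in KI/KI hearts (log2 fold change 4.27, SE 0.73, adjusted p = 0.186). The groups did not overlap, and that edgeR fit called 0 of 14592 genes. The paper, with DESeq2, lists Gdf15 among the genes most raised in KI/KI hearts.

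**Figure D4:**
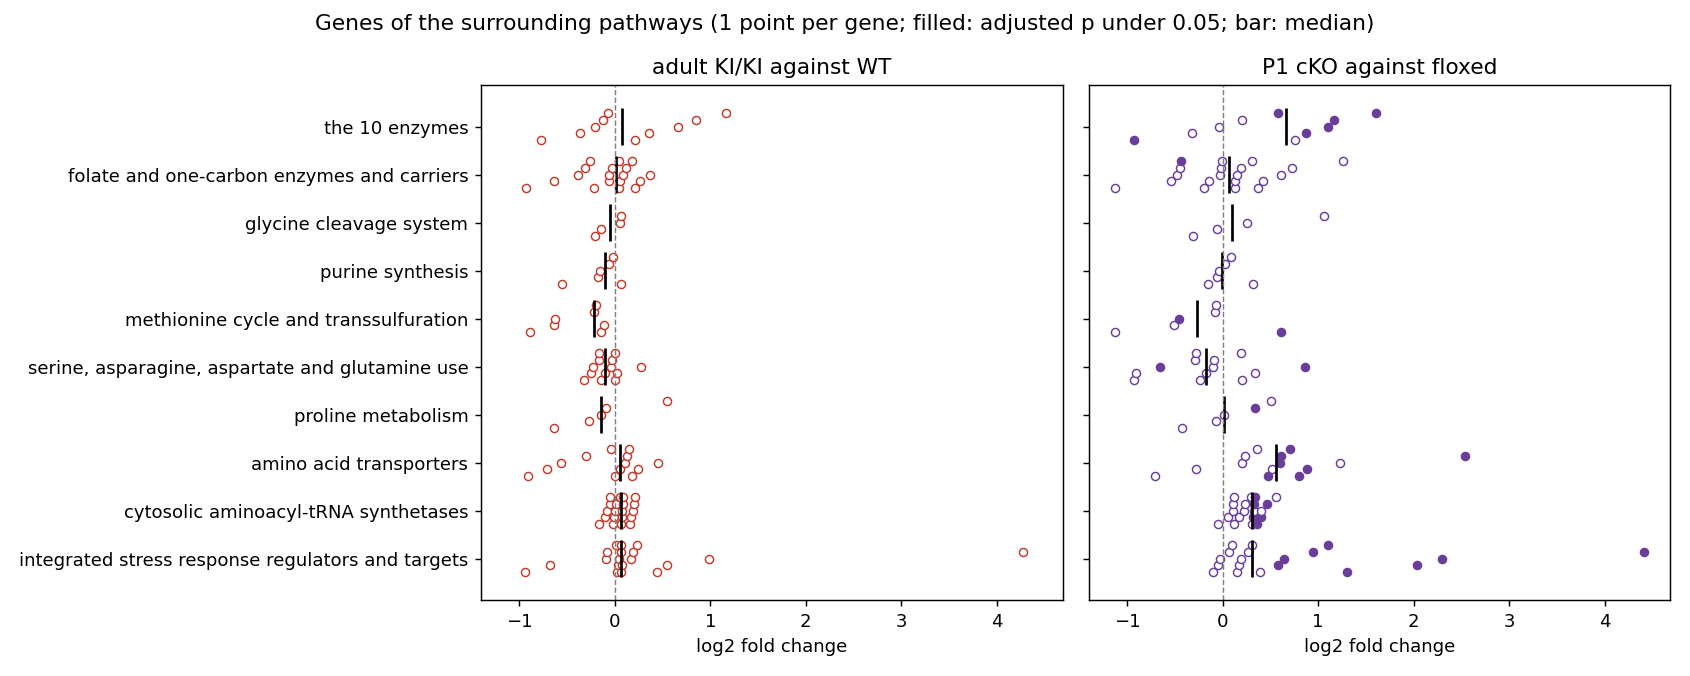
Log2 fold change of every tested gene of the 10 enzymes and of the 9 surrounding lists in KI/KI and cKO hearts (1 point per gene, filled at an adjusted p under 0.05, bar at the median). In cKO hearts the transporter median lies at 0.56 and the synthetase and stress response medians at 0.31, while the folate (0.06) and purine (-0.01) medians lie near 0, and no point is filled in KI/KI hearts.

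Exons of 4 of the enzymes overlap a gene on the other strand, and the strand setting of the counting is not given in the sources used here, so reads there could be shared. The longest overlap, 1056 bases, is between Aldh1l2 and D10Wsu102e, which changed by 0.28 in cKO and 0.10 in KI/KI hearts on the log2 scale, opposite in sign to Aldh1l2 (adjusted p = 0.0672 and 0.567). Psph shares 452 bases with Cct6a (0.24 in cKO hearts, adjusted p = 0.0891), Shmt1 184 with Smcr8 (-0.08 in KI/KI hearts, adjusted p = 0.498) and Shmt2 32 with Ndufa4l2.

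The genes whose pattern was most like that of Phgdh, Mthfd2 and Asns were found by Pearson correlation of log2 CPM over the 12 hearts, after the mean of each age was taken away, among 15728 genes. The hearts share group membership, so these values describe likeness and carry no test. For Phgdh they were Morc4 (r = 0.960), Wtip (0.876) and Rbms1 (0.868). For Mthfd2 they were Ap2s1 (0.967), Itprip (0.966) and Snx7 (0.965), and for Asns Kctd12 (0.974), Wbp5 (0.973) and Itgav (0.969). None of these 9 genes belongs to the lists above.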

How the data were processed

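PolyA RNA of 12 whole mouse hearts (3 mice per group) was sequenced as single-end reads of 1 library per mouse. Per the labels and the study's methods, the authors used Trim Galore for trimming, STAR 2.7.2b for alignment to mm10 and HTSeq for counting, and the deposited values are raw counts per gene symbol, without normalization. How the reads were assigned to a strand is not given in the sources used here.

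The tests were run with edgeR 4.0.16 (R 4.3.3). The 6 libraries of a comparison were fitted alone, with TMM factors, filterByExpr and the robust quasi-likelihood test, with Benjamini-Hochberg adjustment over all genes tested, and a gene was called at an adjusted p under 0.05. Standard errors (SE) were derived from the fold change and its F statistic. The genotype effects of the models were compared in a fit of all 12 libraries. CPM was divided by the RefSeq exon length for levels per kb, and coordinates and exon overlaps are from GENCODE vM21 (GRCm38). The p-values test the difference between groups against the spread between mice, with 3 per group, which edgeR estimates with information from all genes. Library totals ranged from 37063669 to 44789753 counts, and the filter, not a floor, decided which genes were tested.

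The 10 enzymes and the gene lists were chosen with earlier results of these data known. All 10 are named. From each of 9 pathway lists up to 3 called genes per direction were named by size of change in cKO hearts and for the difference between the models. For adult WT against floxed hearts only the amino acid use, proline and folate lists were treated so. Of the methionine cycle list only Cth is named there, and the other lists are given by counts. Other genes are marked where named. Marker lists are given by sums and counts. A gene first placed in the proline list is not reported here. Alternatives were DESeq2 1.42.0, limma-voom (limma 3.58.1), other scalings and filters, a Y-linked covariate, a replicate block, other thresholds and each library left out. The scripts were tested on simulated counts.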

Additional observations from a re-analysis of the deposited data

Results flagged for a closer look

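In 6 of 117 enzymes and surrounding genes the change in cKO hearts differed from the change in KI/KI hearts by the test of that difference in edgeR, over all 12 hearts, against 2.51% of all genes. Among the enzymes, the difference (cKO minus KI/KI, log2) was 0.89 for Psat1 (adjusted p = 0.0432), where the 2 changes were 1.10 and 0.22. It was -1.19 for Shmt1 (adjusted p = 0.0202), where they were -0.04 and 1.16. Among the surrounding genes it was 0.84 for Ahcy (adjusted p = 0.0343), with changes of 0.61 and -0.22. For Slc7a1, a cationic amino acid transporter, it was 1.19 (adjusted p = 0.0348), with changes of 0.62 and -0.57. Slc3a2, the heavy chain shared by several transporters, differed by 0.71 (adjusted p = 0.0488). Atf3, a stress-induced transcription factor, differed by 2.26 (adjusted p = 0.0432), with changes of 2.30 and 0.05. With 1 of the 12 hearts left out in turn, Shmt1 was called in 8 of the 12 fits, Psat1, Ahcy, Slc7a1 and Atf3 in 3 each and Slc3a2 in 1, all with the same sign. Over all genes these fits called from 50 (without floxed 1) to 935 (without cKO 6), against 395 with all 12 hearts. The models also differ in age, and the part of model and age in these differences cannot be told apart.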

How the results depend on the processing

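Psat1, Mthfd2 and Aldh1l2 in cKO hearts kept their direction and their call in every alternative, except that Aldh1l2 did not pass where a fold above 2 was also required. In cKO hearts the count of 6 was 3 with that fold, where 686 of 15317 genes were called. It was 7 at an adjusted p under 0.1, a threshold at which the calls over all genes were not counted. With 1 heart left out it was 3 to 5, where 129 to 3385 genes were called. Mthfd1l was lost with library totals, limma-voom and the fit of all 12 hearts, and Asns with the Y-linked covariate, while Psph was gained in the fit of all 12. In KI/KI hearts the count of 0 was 2 with DESeq2 (518 of 14616 genes called) and 1 in the fit of all 12 hearts (27 of 15729). It was 0 with any 1 heart left out, where 0 to 52 genes were called. For adult WT against floxed hearts the count of 10 was 7 with a fold above 2, where 4123 of 15183 genes were called. It was 8 to 10 with 1 heart left out, where 8846 to 9858 genes were called. The count of 2 for the difference between the models was 1 with a fold above 2, where 159 of 15729 genes were called. It was also 1 with limma-voom, library totals or the Y-linked covariate, where 283, 608 and 253 of 15729 genes were called. With 1 heart left out it was 0 to 2, where 50 to 935 genes were called.

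Signs turned in values near 0. With 1 heart left out, Mthfd1l in KI/KI hearts ranged from -0.32 to 0.39, Shmt2 in KI/KI hearts from -0.21 to 0.0099, Shmt1 in cKO hearts from -0.10 to 0.0076 and Aldh1l2 in the difference between the models from -0.33 to 0.059. Mthfd1l in KI/KI hearts was 0.00092 with library totals and 0.060 with the Y-linked covariate, and Shmt1 in cKO hearts 0.0025 with that covariate. With library totals, adult WT against floxed gave -0.088 for Shmt2, -0.088 for Ahcy and -0.0039 for Slc3a2. That scaling moved the share of calls that were higher from 48.6% to 25.5% for adult WT against floxed, from 55.6% to 43.7% in cKO hearts and from 48.1% to 17.1% for the difference between the models. The cause was not tested.

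No label ties WT and floxed hearts of the same replicate number, and they differ in age. Deviations from the group mean correlated at r = -0.16, -0.24 and -0.43 for same-numbered hearts and at -0.21 to 0.34 for other pairs. Deviations within a group cancel out, so these values cannot decide whether the hearts were paired. With the replicate block 9 of the 10 enzymes were called, Phgdh being lost, and 8966 genes in place of 9826. Other comparisons share no replicate numbers. Among the 10 enzymes, low counts limit Phgdh and Pycr1 in adult hearts, with 25 to 99 reads per heart.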

Other observations

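Genes around the amino acids of these enzymes were also compared between adult WT and P1 floxed hearts, on the log2 scale and with the same limits of age and allele as above, where 31.4% of all genes were called higher and 33.3% lower. Of 13 genes listed for the use of serine, asparagine, aspartate and glutamine, 6 were called higher, 1 was called lower and 6 were not called. Sds, a serine dehydratase, was higher by 2.23 (SE 0.27, adjusted p = 1.99e-04), as were Glul (1.69) and Got1 (1.46), which can make glutamine and aspartate, the substrates of Asns. Sptlc2, a subunit that joins serine to fatty acid in sphingolipid synthesis, was lower (-0.98). Of 5 proline genes 3 were called higher and 2 lower. The oxidation genes Aldh4a1 (6.49-fold) and Prodh (5.61-fold) were higher, as was Oat, the ornithine aminotransferase (1.89-fold, adjusted p = 5.69e-05 by edgeR). The synthesis genes Aldh18a1 (-1.37) and Pycrl (-0.54) were lower, the same direction as Pycr1.

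Cth, the last enzyme of transsulfuration, was higher in adult WT hearts by 4.26 (SE 0.46, adjusted p = 1.07e-04), from 4 to 13 counts in floxed hearts to 93 to 197 in WT hearts. Among folate genes 7 were called higher and 8 lower of 20. Mtr (1.68), Folr2 (1.60) and Aldh1l1 (1.48) were furthest up, and Ftcd (-3.58), Tyms (thymidylate synthase, -2.13) and Folr1 (-1.70) furthest down. Folr1 had only 3, 3 and 4 counts in WT and 11, 19 and 15 in floxed hearts. DESeq2 did not call Folr1 (adjusted p = 0.0774). The part of proliferating cells, whose markers were lower in adult hearts, in the Tyms value was not tested. The stress response list had 9 genes called higher and 2 lower of 19 in adult WT hearts, and the transporters 3 and 7 of 14. The synthetases had 7 and 2 of 20, glycine cleavage 2 and 0 of 4, and purine synthesis 0 of 6. Over all genes 31.4% were called higher and 33.3% lower.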
